A study of Mus musculus with 18 samples.

Results

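The growth hormone and IGF axis is described here by 10 genes of the liver, taken from the deposited expression table by gene symbol. They are the receptors Ghr, Igf1r and Insr, the signal genes Stat5b and Socs2, and the secreted products Igf1, Igfals, Igfbp1, Igfbp2 and Igfbp3. All 10 were among the 31165 genes of the table and all 10 passed the filter on low values, an average scaled count of at least 10, which 14104 genes passed. The livers came from C57BL/6J mice injected intraperitoneally with a stabilised miR-497a-5p mimic or with a scrambled mimic on postnatal days 1 and 3. There were 6 groups of 3 livers: mimic and scrambled at day 5 (P5), at day 7 (P7) and at day 14 (P14). The labels describe a lower dose of 10 and a higher of 100 mg/kg without giving that of single libraries, and there were no uninjected mice. They do not tie livers to litters either, so the p-values measure the spread between these livers.

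In the liver, growth hormone binds the receptor Ghr, whose partner kinase Jak2 phosphorylates the transcription factor Stat5b. Stat5b then switches on Igf1, the main circulating growth factor of postnatal life, Igfals, which holds IGF1 in a long-lived blood complex with IGFBP3, and Socs2, which dampens the receptor. The rodent liver is known to gain this growth hormone response after birth, while Igf1r, the receptor that answers IGF1, is low in adult hepatocytes and Insr, its insulin-binding relative, is high. MicroRNAs of the miR-15/16/195/497 family pair with target mRNAs through bases 2 to 8, the seed, and Igf1r and Insr are reported targets of the family.

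The mature microRNA is shown with its seed in capitals, beside 3 relatives that carry the same seed (RefSeq, GRCm38.p6), because the sites in the axis genes are read from that seed.
mmu-miR-497a-5p: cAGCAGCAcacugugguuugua
mmu-miR-195a-5p: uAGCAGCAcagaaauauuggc
mmu-miR-15a-5p: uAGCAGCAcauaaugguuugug
mmu-miR-322-5p: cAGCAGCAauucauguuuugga
The gene of miR-497a-5p places the mature sequence at chr11:70234730-70234751 on the plus strand, next to miR-195a-5p at chr11:70235062-70235082.

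The letters that pair with the seed, TGCTGCT, were searched on the transcript strand in the longest 3′ UTR of each gene (GENCODE M21, GRCm38). They occurred in 6 of the 10 genes, at 8 places, and in 3231 of 13190 tested genes with an annotated 3′ UTR (24.5%). A longer UTR has more places for a match. The members' UTRs ran from 262 bases (Igfals) to 7267 (Igf1r), and these shares are not matched for length. Ghr, Igf1, Igfbp1, Igfbp3 and Igf1r each had 1 match and Insr had 3. Igfals, Igfbp2, Socs2 and Stat5b had none in these UTRs. Windows of 7 of the 8 places are written 5′ to 3′ with the match in capitals; in Ghr the match is followed by an A, which makes it an 8-letter match.
Ghr, chr15:3318049-3318078, minus strand: ttctgctacttTGCTGCTAtggtttctcca
Igf1, chr10:87930772-87930801, plus strand: gcaggatccttTGCTGCTtgagcaacctgc
Igfbp1, chr11:7202303-7202332, plus strand: gggcagagtgaTGCTGCTtagaacaaggca
Igfbp3, chr11:7207143-7207172, minus strand: acgggcttcaaTGCTGCTggccctctgcct
Igf1r, chr7:68229940-68229969, plus strand: acccatccgtcTGCTGCTcacaggtggaca
Insr, 1 site, chr8:3154969-3154998, minus strand: tgaccaatagcTGCTGCTttcatattttat
Insr, another site, chr8:3151171-3151200, minus strand: tgtatcaaagtTGCTGCTtctttccccttt
A match describes the letters only and shows no binding.

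Values are the authors' scaled counts, in which each gene's count was divided by a size factor of its library and rounded. They sum to 3954405 to 4248257 per library, and the worth of 1 read, recovered from the steps between low values, gave an estimated 3007200 to 5323000 reads per library. All 7 hepatocyte markers were present in every group, with summed scaled counts of 10412 to 14666 per library. P7 scrambled replicate 3 stood apart, with 4999 genes above 0 that were listed at 0 in the other 17 libraries, against 0 to 9 such genes in each of those, and it shared a further 1204 with P7 scrambled replicate 2 alone, against 40 to 110 with any other library. Markers of skeletal muscle summed to 1452, 20 and 366 in P7 scrambled replicates 1, 2 and 3, against 1 to 17 in the other groups. P7 results are therefore also given without replicates 2 and 3 and, an alternative chosen after seeing the data, without the muscle-rich replicates 1 and 3, where this changes them. The libraries also differed in how their values ranked with transcript length, with a rank correlation of 0.49 in P7 mimic replicate 1 at the high end and of -0.35 in the second P5 scrambled liver at the low end, and all 6 P7 libraries above 0.

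With age, Ghr, Stat5b and Igf1 rose and Igf1r fell. For P14 against P5, 6 of the 10 genes rose (Ghr, Igf1, Igfals, Igfbp3, Insr and Stat5b), 1 fell (Igf1r) and 3 did not pass the test (Igfbp1, Igfbp2 and Socs2), by limma on log2(scaled count + 1) with both injections averaged and Benjamini-Hochberg adjustment over all genes tested. Of all 14104 genes 48.8% passed in that comparison, 23.9% higher and 24.8% lower at P14, beside the members' 7 of 10. In whole liver, fewer cells of a type and less RNA per cell cannot be told apart. The members' median log2 difference was 0.34, against 0.01 over all genes.

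**Figure D1:**
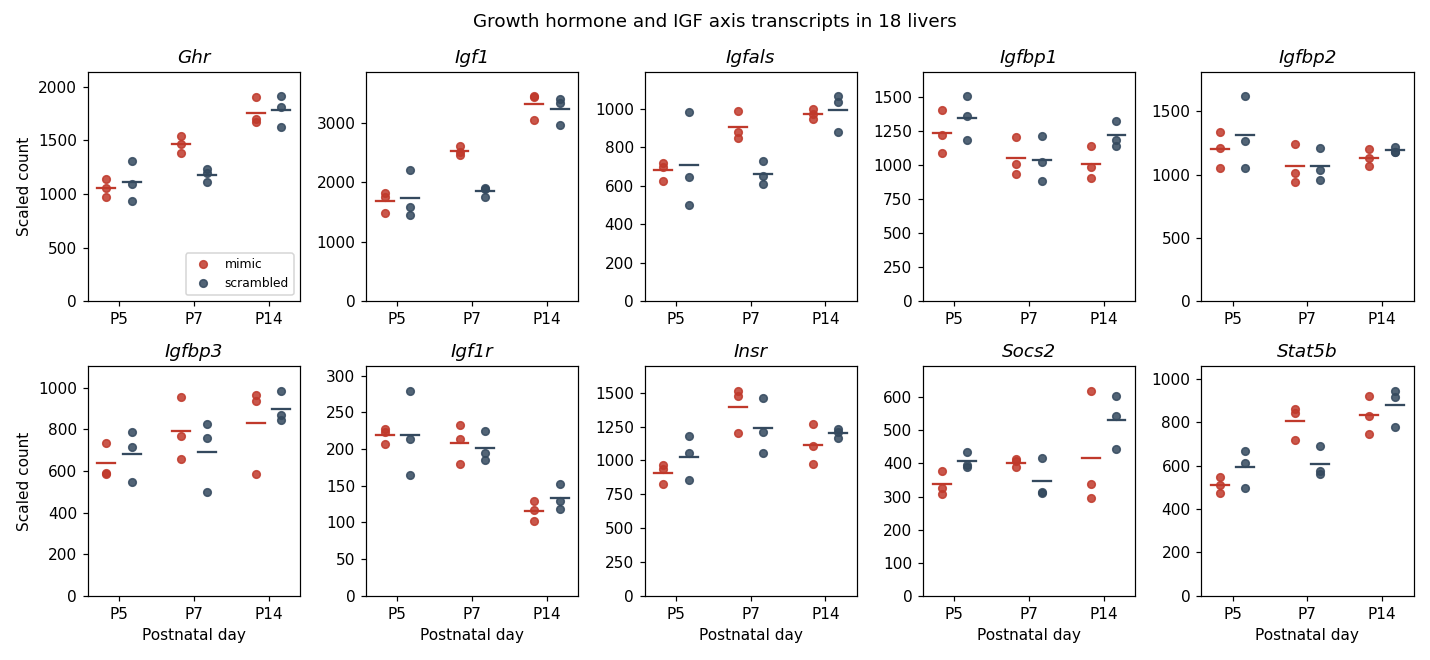
Scaled counts of the 10 genes in each of the 18 livers by postnatal day, mimic at the left and scrambled at the right of each day; points are livers and bars are group means. Igf1, Ghr and Stat5b climb with age and Igf1r drops at P14, while at P7 the mimic livers lie above the scrambled livers for Igf1, Igfals, Stat5b and Ghr.

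Ghr, the growth hormone receptor (chr15:3317760-3583230, minus strand), had scaled counts of 939 to 1310 at P5 (median 1073), 1109 to 1542 at P7 (median 1308) and 1625 to 1908 at P14 (median 1752). The P14 livers all lay above the P7 and the P5 livers, while P7 and P5 overlapped. Its log2 difference was 0.71 ± 0.08 (SE) for P14 against P5, a fold of 1.64 (limma adjusted p = 2.8e-07). Within the mimic livers it was 0.74, and within the scrambled livers 0.69.

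Stat5b, the transcription factor downstream of Ghr (chr11:100780731-100850724, minus strand), had 473 to 666 scaled counts at P5 (median 529), 562 to 859 at P7 (median 704) and 746 to 944 at P14 (median 874). All P14 livers exceeded all P5 livers. The log2 difference for P14 against P5 was 0.64 ± 0.08 (SE), a fold of 1.56 (limma adjusted p = 4.7e-06).

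Socs2, the feedback inhibitor of the receptor (chr10:95411490-95416857, minus strand), had 307 to 435 scaled counts at P5 (median 383), 310 to 416 at P7 (median 398) and 296 to 619 at P14 (median 493). The P14 livers were the most spread, and they overlapped both earlier days. Its log2 difference of 0.31 ± 0.14 (SE) for P14 against P5 did not pass the test (limma adjusted p = 0.073). It passed at 0.41 without P14 mimic replicate 1 (limma adjusted p = 0.015), and also without P14 mimic replicate 3 or P14 scrambled replicate 2. Under TMM scaling of the libraries it passed at 0.33 (adjusted p = 0.0495). For P14 against P7 its difference of 0.29 did not pass (limma adjusted p = 0.082). That difference passed once each library's trend with transcript length was removed (0.37, adjusted p = 0.033). It also passed without P7 scrambled replicate 1 or P14 mimic replicate 1 (adjusted p = 0.042 and 0.019).

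Igf1 (chr10:87858265-87937042, plus strand) changed most of the members that rose. It had 1447 to 2202 scaled counts at P5 (median 1671), 1761 to 2606 at P7 (median 2189) and 2973 to 3447 at P14 (median 3376), and every P14 liver lay above every younger one. The log2 difference for P14 against P5 was 0.94 ± 0.09 (SE), a fold of 1.92 (limma adjusted p = 3.7e-08), with 0.97 within the mimic livers and 0.91 within the scrambled livers.

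Igfals, the acid-labile subunit (chr17:24878770-24882008, plus strand), had 500 to 985 scaled counts at P5 (median 671), 609 to 988 at P7 (median 788) and 878 to 1064 at P14 (median 985). A single P5 liver, scrambled replicate 2 with 985, reached into the P14 range. The log2 difference for P14 against P5 was 0.52 ± 0.11 (SE), a fold of 1.44 (limma adjusted p = 8.1e-04).
Igfals was the only one of the 8 members with a RefSeq promoter window (250 bases before to 50 after a start) in which TTCNNNGAA, the core letters that STAT5 proteins bind, was found; the motif reads the same on both strands. The letters occurred in 8.30% of 32851 such windows and in at least 1 window of 9.55% of 27025 genes. Both windows of Igfals that hold it are shown with the motif in capitals, on the plus strand of GRCm38.p6.
Igfals, upstream window, chr17:24877598-24877627: gatctataatTTCTCAGAAaagaggctgag
Igfals, downstream window, chr17:24878163-24878192: ctgccaggtgTTCCTAGAAgaggccctggg

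Igfbp3, the main carrier of IGF1 in blood (chr11:7206086-7213923, minus strand), had 548 to 788 scaled counts at P5 (median 654), 498 to 955 at P7 (median 762) and 587 to 985 at P14 (median 904). The days overlapped, and P14 mimic replicate 3 stood low at 587. The log2 difference for P14 against P5 was 0.38 ± 0.14 (SE), with a limma adjusted p of 0.033, which was 0.14 when libraries were scaled to their hepatocyte markers. Of those markers Alb, Apoa1 and Ttr had reads that varied by no more than counting error (1.52% against 2.19%, 2.87% against 3.36%, and 3.37% for both), so this scaling does not measure the share of hepatocytes. The call was also lost without P5 mimic replicate 1 or 3, P5 scrambled replicate 3, P14 mimic replicate 1 or 2, or P14 scrambled replicate 2 (adjusted p = 0.069 to 0.093).

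Igfbp1, a binding protein that insulin lowers in liver (chr11:7197782-7202546, plus strand), had 1092 to 1507 scaled counts at P5 (median 1293), 888 to 1214 at P7 (median 1020) and 907 to 1325 at P14 (median 1146). Its log2 difference of -0.31 ± 0.09 (SE) for P7 against P5 passed (limma adjusted p = 0.022), but not without P5 mimic replicate 3, P5 scrambled replicate 2, P7 mimic replicate 1 or 3, or P7 scrambled replicate 2 (adjusted p = 0.057 to 0.069), and its P14 against P5 difference of -0.22 did not pass (adjusted p = 0.061). This difference passed under hepatocyte scaling (-0.34, limma adjusted p = 0.0013), with the length trend removed (0.0325) and with only the libraries compared (0.0497). It also passed without P5 mimic replicate 2, P5 scrambled replicate 1, P14 mimic replicate 2 or P14 scrambled replicate 3 (0.029 to 0.0495). Estimated reads of Igfbp1 overlapped, with 1067 to 1334 at P5 and 913 to 1324 at P14. Igfbp2, a binding protein abundant in fetal liver (chr1:72824503-72852474, plus strand), ranged from 1052 to 1617 at P5, 944 to 1238 at P7 and 1072 to 1219 at P14 and passed in no comparison of days. For P7 against P5 it did pass under hepatocyte scaling (-0.25, limma adjusted p = 0.016) and without P5 mimic replicate 2, P5 scrambled replicate 1, P7 mimic replicate 2 or P7 scrambled replicate 3 (adjusted p = 0.014 to 0.0465), and for P14 against P5 under hepatocyte scaling (-0.22, adjusted p = 0.0071). The estimated reads of Igfbp2 varied by no more than counting error, so these calls do not measure a change in Igfbp2.

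Igfbp2 varied less in estimated reads than in scaled counts. Its estimated reads were 1111 to 1216 in all 18 libraries, a coefficient of variation of 2.62% where counting error alone gives 2.93%. The hepatocyte marker Alb behaved alike, with 1.52% against a counting error of 2.19%. These genes had 0.890 (Igfbp2) and 1.03 (Alb) estimated reads per base of their longest transcript. The 26 tested genes with 0.8 or more had a median spread of 1.22 times the counting error, against 3.21 times for the 1535 genes with 0.2 to 0.4. Igfbp1, at 0.758 reads per base, had 9.99% against 2.94%, and the other 8 members had 0.0164 to 0.344 reads per base and coefficients of 21.2% to 33.5%. The scaled count of a gene is its reads multiplied by the worth of 1 read, which ran from 0.7845 to 1.4127 over the libraries.

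**Figure D2:**
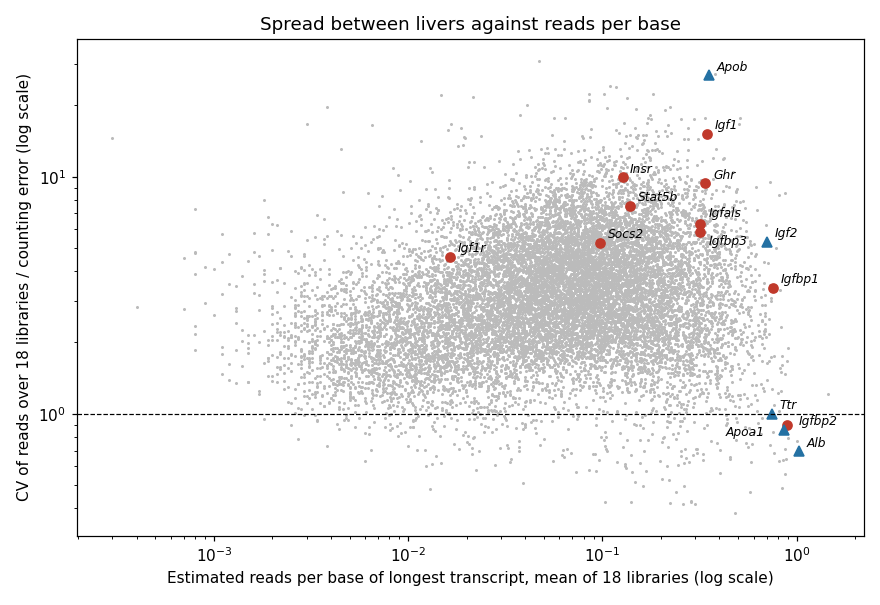
Coefficient of variation of estimated reads over the 18 libraries divided by the counting error, against estimated reads per base, both on log scales; grey points are tested genes, red points the 10 axis genes, blue triangles Igf2 and 4 hepatocyte markers, and the dashed line marks a spread equal to the counting error. Igfbp2 (0.890 reads per base) lies under the line beside Alb and Apoa1, Igfbp1 (0.758) above it, and the other members at 0.344 or less.

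Igf1r (chr7:67952827-68233668, plus strand) was the member with the lowest level. It had 164 to 279 scaled counts at P5 (median 218), 179 to 233 at P7 (median 204) and 102 to 152 at P14 (median 124). All P14 livers lay below all P7 and P5 livers. The log2 difference for P14 against P5 was -0.80 ± 0.12 (SE), a fold of 0.574 (limma adjusted p = 1.3e-05), with -0.92 within the mimic livers and -0.69 within the scrambled livers. Markers of red cell precursors summed to 575 to 1467 scaled counts in P14 livers, against 5427 to 7453 in P5 livers, and those of dividing cells to 1785 to 2367 in P14 livers, against 4270 to 5396 in P5 livers; their part in the result was not tested.

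Insr (chr8:3150922-3279617, minus strand) had 825 to 1177 scaled counts at P5 (median 952), 1052 to 1513 at P7 (median 1334) and 971 to 1271 at P14 (median 1188). It was highest at P7, and all 3 days overlapped. It rose by 0.44 ± 0.09 (SE) on the log2 scale for P7 against P5 (limma adjusted p = 0.0050), which was 0.15 (adjusted p = 0.12) once each library's trend with transcript length was removed; for P14 against P5 it was 0.26 (adjusted p = 0.026), with an adjusted p of 0.36 under hepatocyte scaling. That call was lost without P5 mimic replicate 3, P5 scrambled replicate 3, P14 mimic replicate 2 or P14 scrambled replicate 2 (limma adjusted p = 0.0525 to 0.079).

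Members passed in both intervals between days, though for P14 against P7 their share was near that of all genes. The P7 and P5 livers overlapped for all 10 members, where 1.92% of all genes lay wholly higher and 3.31% wholly lower at P7. For P7 against P5, Ghr (0.28), Igf1 (0.35), Insr and Stat5b (0.35) rose and Igfbp1 fell in scaled counts, 5 of 10 against 26.9% of all genes (13.7% higher, 13.2% lower). Estimated reads of Igfbp1 overlapped, with 1067 to 1334 at P5 and 1071 to 1207 at P7. The worth of 1 read was 0.8884 to 1.4127 at P5 and 0.7845 to 1.0631 at P7, and its part in the fall of Igfbp1 was not tested. For P14 against P7, Ghr (0.43), Igf1 (0.59), Igfals (0.34) and Stat5b (0.29) rose and Igf1r fell by 0.72, 5 of 10 against 50.3% (24.0% higher, 26.3% lower). Stat5b did not pass for P14 against P7 under hepatocyte scaling (adjusted p = 0.19), nor did Igfals without P7 scrambled replicates 2 and 3 (0.16), nor either gene without replicates 1 and 3 (0.13 and 0.057), where Igfbp3 (0.45) and Insr (-0.30) passed. With the length trend removed, 3 members passed for P7 against P5: Igf1 (0.12, limma adjusted p = 0.44), Igfbp1 (-0.14, adjusted p = 0.23) and Insr no longer did, and Igf1r did (-0.41, adjusted p = 0.0100); without P7 scrambled replicates 2 and 3 there were 2, since Ghr, Igfbp1 and Stat5b no longer passed, and without replicates 1 and 3 there were 5.
The groups of 6 livers did not overlap for Ghr, Igf1 and Stat5b (P14 higher, 10.9% of all genes) and Igf1r (P14 lower, 15.3%) in the P14 against P5 comparison. For P14 against P7 this held for Ghr and Igf1 (P14 higher, 10.9%) and Igf1r (P14 lower, 14.6%).

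**Figure D3:**
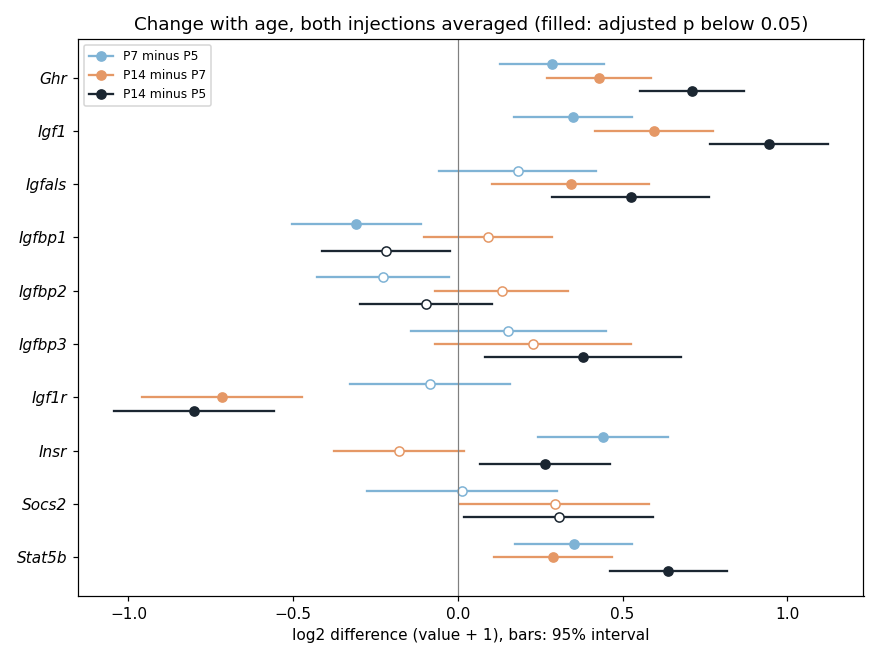
log2 differences of the 10 genes between days with 95% intervals, both injections averaged; filled points passed an adjusted p of 0.05. Igf1 has the largest rise (0.94 for P14 against P5) and Igf1r the largest fall (-0.80).

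Per kilobase of longest transcript, the order of levels at P14 was Igfbp2 (890.0 ± 40.5 scaled counts per kilobase, SD, n = 6), Igfbp1 (732.1 ± 97.9), Igf1 (465 ± 29.98), Ghr (424 ± 29.2), Igfals (374 ± 25.2), Igfbp3 (357 ± 60.6), Stat5b (164 ± 15.9), Insr (124 ± 11.7), Socs2 (112 ± 32.3) and Igf1r (10.9 ± 1.47). The level of Igfbp2 rests on reads that varied by no more than counting error, so its place in this order is uncertain. That of Igfbp1 is uncertain too. It had 0.758 reads per base, and the tested genes with 0.6 to 0.8 had a median spread of 2.33 times the counting error. On the same scale Alb had 1056 and Apoa1 901 at P14, little above Igfbp2, so this is an order of scaled counts only. Igfals and Igfbp3, and Insr and Socs2, differed by less than their spread. Insr therefore stood well above Igf1r at each day, with 104, 141 and 124 scaled counts per kilobase at P5, P7 and P14 against 19.2, 17.9 and 10.9 for Igf1r.

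The mimic changed no member past the test on any day, as an average over the days, or as a difference between days (limma, 0 of 10 each). Over all genes 0% passed at P5, 0.00709% at P7, on the average over days and as a difference between days, and 0.0213% at P14. At an unadjusted p under 0.05 there were 0 members at P5 (1.89% of all genes), 4 at P7 (7.61%) and 1 at P14 (5.41%).

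The reported targets of the family did not separate. Igf1r had 207, 223 and 227 scaled counts in P5 mimic livers, against 279, 213 and 164 in P5 scrambled livers. At P7 it had 233, 179 and 213 in mimic livers, against 194, 185 and 225 in scrambled livers. At P14 it had 117, 129 and 102 in mimic livers, against 118, 129 and 152 in scrambled livers. The groups overlapped on every day, with log2 differences of 0.03, 0.05 and -0.19 at P5, P7 and P14; the 95% interval at P14 ran from -0.54 to 0.15.
Insr, with 3 TGCTGCT matches, had 937, 966 and 825 scaled counts in P5 mimic livers, against 1177, 1052 and 857 in P5 scrambled livers. At P7 it had 1513, 1202 and 1476 in mimic livers, against 1207, 1460 and 1052 in scrambled livers. At P14 it had 971, 1271 and 1104 in mimic livers, against 1211, 1235 and 1165 in scrambled livers. Its log2 differences were -0.17, 0.18 and -0.12, each with a 95% interval that included 0, and the groups overlapped on every day. With the length trend removed, its P7 mimic livers all lay above the P7 scrambled livers, and against P7 scrambled replicate 2 alone its P7 difference was -0.07.

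At P7, 4 members had all 3 mimic livers above all 3 scrambled livers, where 6.52% of all genes did so. Igf1 had 2514, 2606 and 2465 scaled counts in P7 mimic livers, against 1895, 1913 and 1761 in P7 scrambled livers, which differed by 0.45 ± 0.12 on the log2 scale (SE; limma adjusted p = 0.33). Igfals had 877, 988 and 846 in mimic livers, against 730, 653 and 609 in scrambled livers, a log2 difference of 0.44 ± 0.16 (adjusted p = 0.44). These genes are both known targets of Stat5b.
Stat5b itself had 842, 718 and 859 in P7 mimic livers, against 562, 689 and 575 in P7 scrambled livers, which differed by 0.41 ± 0.12 on the log2 scale (SE; limma adjusted p = 0.33). Ghr had 1466, 1542 and 1379 in mimic livers, against 1197, 1237 and 1109 in scrambled livers, a log2 difference of 0.31 ± 0.11 (adjusted p = 0.41). None passed the adjusted test. Against P7 scrambled replicate 1 alone, the liver richest in muscle markers, the differences were 0.42 (Igf1), 0.30 (Igfals), 0.52 (Stat5b) and 0.29 (Ghr), and against replicate 2 alone, which had few, they were 0.40, 0.46, 0.22 and 0.24, with the lone liver assumed to vary like the other groups.
At P5 the same 4 genes had log2 differences of -0.03 (Igf1), -0.01 (Igfals), -0.21 (Stat5b) and -0.07 (Ghr), and at P14 of 0.03, -0.03, -0.08 and -0.02. The F test of a difference between days gave an unadjusted p of 0.0047 for Stat5b, 0.024 for Igf1 and 0.045 for Ghr, with limma adjusted p-values of 0.51, 0.67 and 0.76. Markers of sinusoidal endothelium summed to 3064 to 3490 in P7 mimic livers, against 3681 to 3950 in P7 scrambled livers, and those of hepatocytes to 13410 to 14666, against 11810 to 14179; their part in the result was not tested.

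Socs2 had 378, 325 and 307 scaled counts in P5 mimic livers, against 388, 435 and 395 in P5 scrambled livers. It was the single member whose groups did not overlap at P5 (mimic lower, 2.12% of all genes), at -0.27 ± 0.19 on the log2 scale (SE; limma adjusted p = 1), and they overlapped once the length trend was removed. At P14 it had 296, 619 and 338 in mimic livers, against 605, 443 and 542 in scrambled livers, which overlapped, with a difference of -0.41 (adjusted p = 0.91).
Igfbp1 had 986, 1145 and 907 in P14 mimic livers, against 1146, 1190 and 1325 in P14 scrambled livers. In scaled counts these groups did not overlap (mimic lower, 4.35% of all genes), at -0.27 ± 0.13 on the log2 scale (SE, limma adjusted p = 0.92). Their estimated reads overlapped, with 913 to 1193 in mimic livers and 1062 to 1324 in scrambled livers. With the length trend removed the Igfbp1 groups overlapped and those of Igfbp2 did not. Markers of red cell precursors summed to 1059 to 1467 in P14 mimic livers, against 575 to 984 in P14 scrambled livers, and those of stellate cells and fibroblasts to 3649 to 4946, against 5203 to 5628; their part in the result was not tested.

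**Figure D4:**
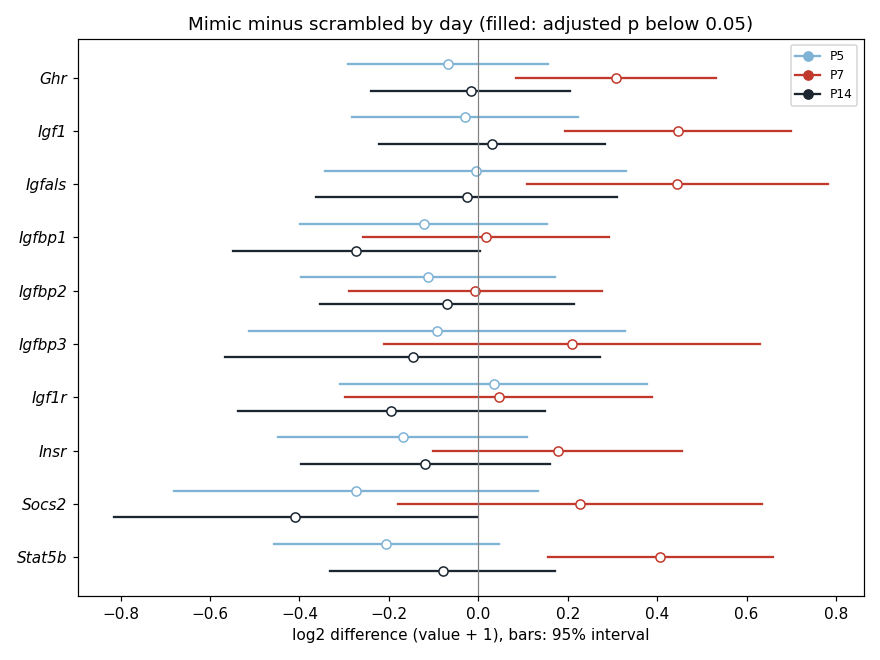
log2 differences of mimic minus scrambled livers by day with 95% intervals; no point is filled, since none passed an adjusted p of 0.05. At P7 the intervals of Igf1, Igfals, Stat5b and Ghr lie above 0.

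Other genes of the axis were followed in 4 lists, and none passed in a mimic comparison. In the list of growth hormone receptor signal genes, 9 of 12 passed for P14 against P5, 2 higher and 7 lower, where 48.8% of all genes passed, 23.9% higher and 24.8% lower. Stat5a, the close relative of Stat5b, rose by 1.18 and Prlr, the prolactin receptor, by 1.15 on the log2 scale (limma adjusted p = 1.2e-07 and 3.7e-08). Jak2, the kinase of the receptor, had -0.58, Socs1, another suppressor of cytokine signals, -1.01, and Ptpn1, a phosphatase that acts on Jak2, -0.38.
Of the IGF ligand, binding and protease genes, 9 of 11 were tested, and 5 rose and 0 fell for P14 against P5, a share near the 48.8% of all genes. Htra1, a secreted protease, rose by 2.14 and Igfbp5, a further binding protein, by 1.98 (limma adjusted p = 7.3e-06 and 4.2e-05). Igf2, the fetal ligand, did not pass. Its estimated reads per base were close to those of Igfbp1, in a range where the reads of tested genes varied less. The test therefore cannot show that the level of Igf2 was unchanged.
Of the growth hormone dependent liver genes 11 of 14 were tested, with 4 higher and 2 lower, again near the 48.8% of all genes. Mup3, a major urinary protein, rose by 3.59, Bcl6, a transcriptional repressor, by 1.34 and Cyp7b1, an oxysterol hydroxylase, by 0.82, while Slco1a1, an organic anion transporter, had -1.30 and Cyp2d9 -0.43 (limma adjusted p = 6.8e-05, 5.7e-05, 7.7e-04, 0.0017 and 1.6e-04). Mup3 had 0 to 15 scaled counts at P5 and 22 to 71 at P14. Slco1a1 had 6 to 22 at P5 and 3 to 7 at P14, so both differences rest on few reads.
Of the insulin and IGF receptor signal genes, 20 of 20 were tested, with 7 higher and 4 lower, also near the 48.8% of all genes. Foxo1, a transcription factor that insulin restrains, rose by 0.75, while Grb10, an adaptor that inhibits both receptors, had -0.83 and Foxo3 -1.14 (limma adjusted p = 8.1e-07, 3.5e-08 and 6.7e-08).

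**Figure D5:**
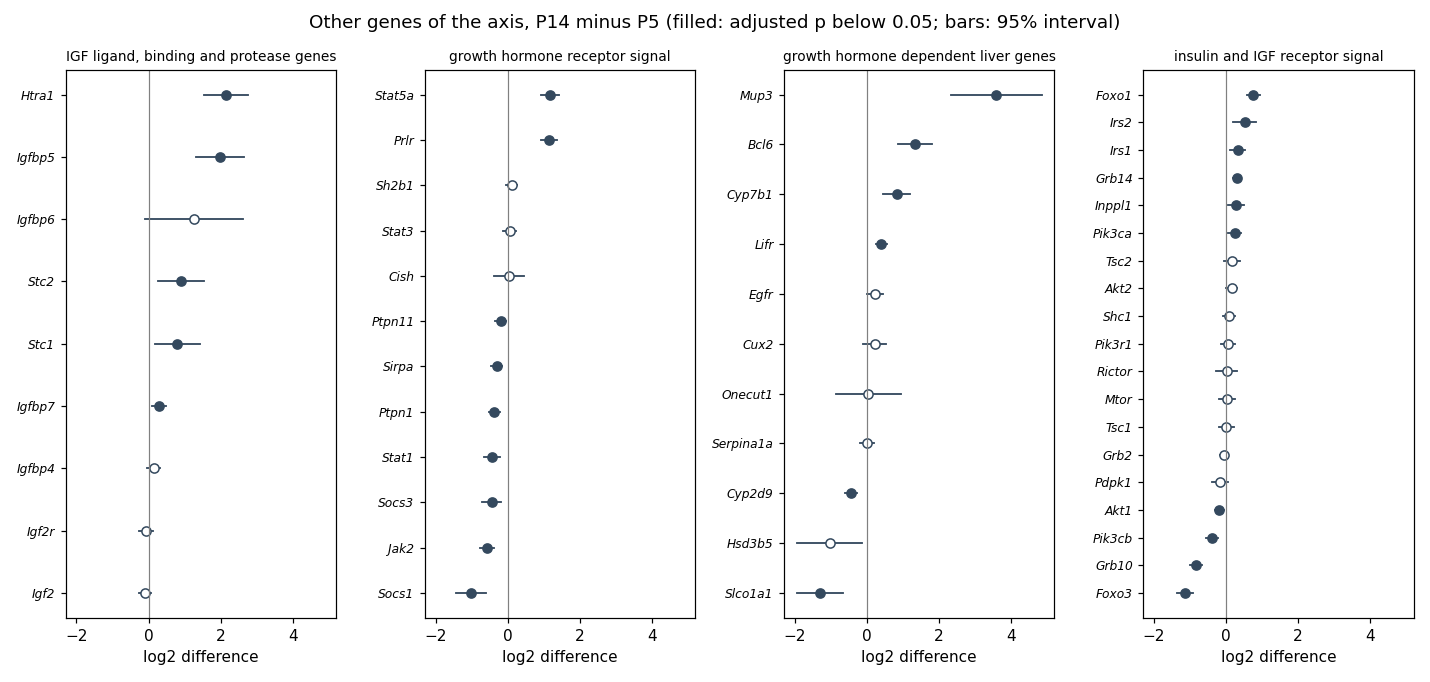
log2 differences of the other axis genes for P14 against P5 in 4 lists, less 1 gene of the insulin and IGF receptor signal list, with 95% intervals; filled points passed an adjusted p of 0.05. Mup3 (3.59) is highest and Slco1a1 (-1.30) lowest, both at low scaled counts.

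By the mean absolute difference of centred log2 group means over the 6 groups, over 9925 genes whose average was at least 100, the nearest genes were Amt and Slc23a1 for Ghr (0.03 each), Tmem184a and Ccdc68 for Igf1 (0.04 each), and Add1 for Igf1r (0.02). Those of Insr were Aox3 and Colec10 (0.02 each), those of Stat5b 1810008I18Rik and Sox5 (0.04 each), and those of Igfals Trp53inp1 and Tob1 (0.04 each). Those of Igfbp2 were the ribosomal protein genes Rps4x and Rpl4 (0.01 each), a likeness of scaled counts only, since the reads of Igfbp2 hardly varied, those of Igfbp1 Taf8 and Rps6 (0.03 and 0.04), those of Igfbp3 Slc26a1 and Pipox (0.02 each), and those of Socs2 Krt23 and Slc8b1 (0.05 each).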

How the data were processed

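Per the labels' protocols, each of the 18 livers gave 1 stranded mRNA library. The deposited table holds scores that are not raw: the authors scaled each gene's count by library and rounded it to a whole number, as the steps between values show. Tools named in the submitters' processing notes are DESeq2 1.26.0, featureCounts 1.6.5, Picard 2.21.7, STAR 2.6.1d and Trimmomatic 0.39, and the build is mm10 (GRCm38). Removal of duplicates is not stated in the sources used here. Gene coordinates are those of the table, lengths and 3′ UTRs come from GENCODE M21, and microRNA and promoter sequences from RefSeq.

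Sample titles gave the groups. Genes averaging 10 or more were fitted on log2(value + 1) in limma 3.58.1 (R 4.3.3), with 6 group means and a mean-variance trend, so that all libraries share 1 estimate of the spread. Benjamini-Hochberg adjustment ran over 14104 genes, with a threshold of 0.05; changes of low genes are understated on this scale. The worth of 1 read was fitted per library from missing and doubled whole numbers, and no count model was run. Both procedures were tested on simulated data. Tried instead were TMM scaling, scaling to hepatocyte markers, removal of each library's length trend (lowess span 0.3), a pseudocount of 5, other filters (none, or 50), a replicate block, only the libraries compared, and leaving out libraries. All members were named in every comparison, with up to 5 genes per list and direction by smallest p eligible and 2 nearest genes per member. The members and lists were chosen with earlier results of these data known. One nearest gene, a gene of a list and a sequence window are not reported here.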

Additional observations from a re-analysis of the deposited data

Results flagged for a closer look

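Among 30 sets of 6 livers (each member on each day, both injections together), 1 had a liver that stood apart from the other 5. Igfbp3 in P14 mimic replicate 3 had 587 scaled counts, and its gap to the next liver was 0.643 of the whole range at P14. Chance alone sets apart about 1 in 20 such sets.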

How the results depend on the processing

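No member passed in a mimic comparison under any alternative run. Members called for P7 against P5 numbered 5, against 3 with the length trend removed and 2 without P7 scrambled replicates 2 and 3; leaving out 1 library gave 4 to 6, and 5 to 8 for P14 against P5. With the length trend removed, 0 members were apart at P5 between mimic and scrambled livers.

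Some small log2 differences changed sign. For mimic at P7, Igfbp2 was 0.0494 under TMM scaling, 0.0155 with the length trend removed and 0.0343 without P7 scrambled replicates 2 and 3, where Igfbp3 was -0.0723 and Socs2 -0.0473. For the mimic average over days, Igfbp3 was 0.00281 under TMM scaling. Without P7 scrambled replicates 1 and 3, an alternative chosen after seeing the data, Igfbp2 was 0.144 and Insr -0.0711 for mimic at P7, Igfbp3 0.138, Igf1r 0.000751 and Stat5b -0.0212 on the average over days, and Igfbp3 -0.0682 and Socs2 -0.0503 for P7 against P5. For P7 against P5, Socs2 was -0.0568 with the length trend removed and -0.00602 under hepatocyte scaling. For P14 against P7, with the length trend removed, Igfbp1 was -0.0728, Igfbp2 -0.0610 and Insr 0.0447, and under hepatocyte scaling Igfbp1 was -0.0121. The causes were not tested. Hepatocyte scaling moved the median of all genes to -0.111 for P14 against P5, against 0.0105.

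Leaving out 1 library at a time gave these ranges of log2 differences. At P5 between mimic and scrambled they were -0.184 to 0.0558 for Ghr, -0.154 to 0.149 for Igf1, -0.230 to 0.258 for Igfals, -0.261 to 0.0490 for Igfbp2, -0.243 to 0.0185 for Igfbp3 and -0.155 to 0.226 for Igf1r. At P7 they were -0.0925 to 0.133 for Igfbp1, -0.120 to 0.0894 for Igfbp2, -0.0112 to 0.351 for Igfbp3 and -0.0389 to 0.150 for Igf1r. At P14 they were -0.0812 to 0.0346 for Ghr, -0.0299 to 0.0901 for Igf1, -0.111 to 0.0274 for Igfals and -0.274 to 0.0851 for Igfbp3. On the average over days they were -0.0833 to 0.0679 for Igfbp3, -0.101 to 0.0259 for Igf1r and -0.0782 to 0.00512 for Insr. For P7 against P5 they were -0.179 to 0.0113 for Igf1r and -0.0560 to 0.0556 for Socs2. For P14 against P5 they were -0.166 to 0.00682 for Igfbp2 and -0.0841 to 0.447 for Socs2 within mimic livers, and -0.266 to 0.0441 for Igfbp2 within scrambled livers.

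Over all genes the mimic called 1 at P7, against 3 with no filter, 0 with a mean of 50, 7 with only the libraries compared, 19 without P7 scrambled replicates 2 and 3 and 6 without replicates 1 and 3, and 3 at P14, against 5 with a pseudocount of 5 and 11 under TMM scaling. Leaving out 1 library gave 0 to 13 at P7 (13 and 9 without P7 scrambled replicate 1 or 2, and 0 without any other P7 liver), 3 to 16 at P14 (8 without P14 mimic replicate 3, 15 and 16 without P14 scrambled replicate 2 or 3), and 1988 to 5072 for P7 against P5 (1988 without P7 mimic replicate 1, 2159 and 2524 without P5 mimic replicate 3 or 1, 2379 without P7 scrambled replicate 2). The average over days and the difference between days called 1 each, against 12 each without P7 scrambled replicates 2 and 3, and 0 and 6 without replicates 1 and 3. For P7 against P5 there were 3798 calls, against 2305 with the length trend removed, 2438 under hepatocyte scaling and 1470 without P7 scrambled replicates 2 and 3, where P14 against P7 had 4651 in place of 7100. Same-numbered mimic and scrambled livers correlated at -0.234 to 0.244 in their deviations from group means. With 3 livers a group this cannot show whether the numbers pair them. With a replicate block 0 members were called for the mimic on each day, and 3 genes at P7 and 7 at P14.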
